A study of Macaca mulatta with 4 samples.

Results

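The 10 genes described here encode the ligands and receptors through which brain tissue signals to its blood vessels: the ligands VEGFA, ANGPT1 and ANGPT2, the VEGF receptors FLT1, KDR and FLT4, the neuropilin co-receptors NRP1 and NRP2, and the angiopoietin receptor pair TEK and TIE1. They were taken by symbol from the 30807 genes of the deposited gene list, and each symbol matched 1 gene. They are followed from the glia and neurons that held the ligand transcripts to the endothelial nuclei that held the receptor transcripts, and then compared between fetuses exposed to lipopolysaccharide (LPS) and Control fetuses.

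VEGFA is a secreted growth factor that neural cells release in greater amount when oxygen is low, and it acts on endothelial cells mainly through KDR, while FLT1 binds it tightly and limits how much reaches KDR. Neuropilins bind VEGF together with these receptors and also bind class 3 semaphorins, which guide axons and migrating neurons. ANGPT1 activates TEK (also called TIE2) and keeps vessels quiet and tight, ANGPT2 competes with it in many settings and loosens vessels, and TIE1 is a partner of TEK that binds neither ligand strongly. In the late fetal cerebellum the vessel bed is still growing together with the granule neurons, so neural sources and endothelial targets lie side by side.

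Single-nucleus RNA sequencing was done on frozen cerebellum of 4 rhesus macaque fetuses, 1 library per fetus. The Control female and the Control male received no intervention and were delivered at 130 days of gestation. The LPS female and the LPS male received 1 mg of LPS from Escherichia coli into the amniotic fluid, a model of chorioamnionitis, and were delivered 5 days later, at 131 and 133 days. The tissue comprised the cerebellar hemispheres and part of the vermis, and each group held 2 separate animals, so every p-value here concerns at most 2 fetuses on a side, and 1 on a side where a library was left out.

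Barcodes with 500 or more detected genes were taken as nuclei, which gave 32587 in all and 6905 to 9256 per library from 34282015 to 61665690 unique molecular identifiers (UMIs, counted transcript molecules). The libraries differed in ways that did not follow the split into Control and LPS. The 2 male libraries had lower median UMIs per nucleus (1882 in Control and 2308 in LPS) than the 2 female libraries (4506 and 4062), and a lower mean share of mitochondrial UMIs (0.0214% and 0.0327% against 0.268% and 0.231%). In the LPS male, 38.7% of the library's UMIs lay in nuclei, against 58.7% to 74.1% elsewhere, and 1910 of its 7805 nuclei fell in a cluster of low UMI number led by ribosomal protein genes that held 91 to 345 nuclei in the other libraries. Each pair of libraries shared 16 to 22 barcode sequences, where a random draw from the list of barcodes would give 7.93 to 11.7. Levels are given in CPM, for which the UMIs of a gene were divided by all UMIs of a cell class in a library and scaled to a common total. Only classes with 10 or more nuclei in a library have a level there.

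Nuclei were clustered without the 10 genes and without the other genes of their pathway, and clusters were named from marker genes. The 220 endothelial nuclei (71 in the Control female, 73 in the Control male, 46 in the LPS female and 30 in the LPS male) had raised levels of all 14 endothelial markers, among them PECAM1 and ERG, although CLDN5, a tight-junction gene of brain endothelium, was sparse at a mean of 6.68 CPM. Astroglia comprised 1865 Bergmann glia, the radial astrocytes that ensheath Purkinje cells, of which 203 were in a cluster led by cell-cycle genes, and 1618 other astrocytes marked by GFAP and AQP4. The granule neuron lineage held 20629 nuclei, fibroblasts 513 and microglia 264. GABAergic interneurons formed 4 clusters of 198 to 1115 nuclei. The microglial cluster was led in part by F13A1 and MRC1, genes of macrophages at the brain's borders. Mural cells numbered 32 in all, fewer than 10 in every library, so no level per library is given for them. Levels are compared between classes as a description, with no test.

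On the mean over libraries, astroglia held the largest part of VEGFA and ANGPT1, and endothelial nuclei that of FLT1, KDR, FLT4, TEK and TIE1. Astroglia, with a mean of 10.6% of nuclei, held 47.1% of VEGFA UMIs and 76.1% of ANGPT1 UMIs (means over 4 libraries). Endothelial nuclei, with 0.666% of nuclei, held 75.9% of FLT1, 66.3% of KDR, 64.8% of FLT4, 60.4% of TIE1 and 38.2% of TEK UMIs. The granule lineage held 29.8% of TEK, 23.3% of VEGFA, 22.7% of FLT4 and 22.6% of TIE1 UMIs. In the LPS male it held more TEK (42 UMIs) and FLT4 (9) than endothelial nuclei did (36 and 8). The other 3 genes were spread more widely. Granule-lineage nuclei held 54.3% of NRP2 UMIs, close to their 63.2% of nuclei, NRP1 lay in endothelial nuclei (29.1%), microglia (23.2%), the granule lineage (16.3%) and fibroblasts (10.5%), and ANGPT2 in the granule lineage (26.5%), fibroblasts (26.4%, between 10.9% and 46.1% per library), GABAergic interneurons (14.7%) and astroglia (12.1%).

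**Figure D1:**
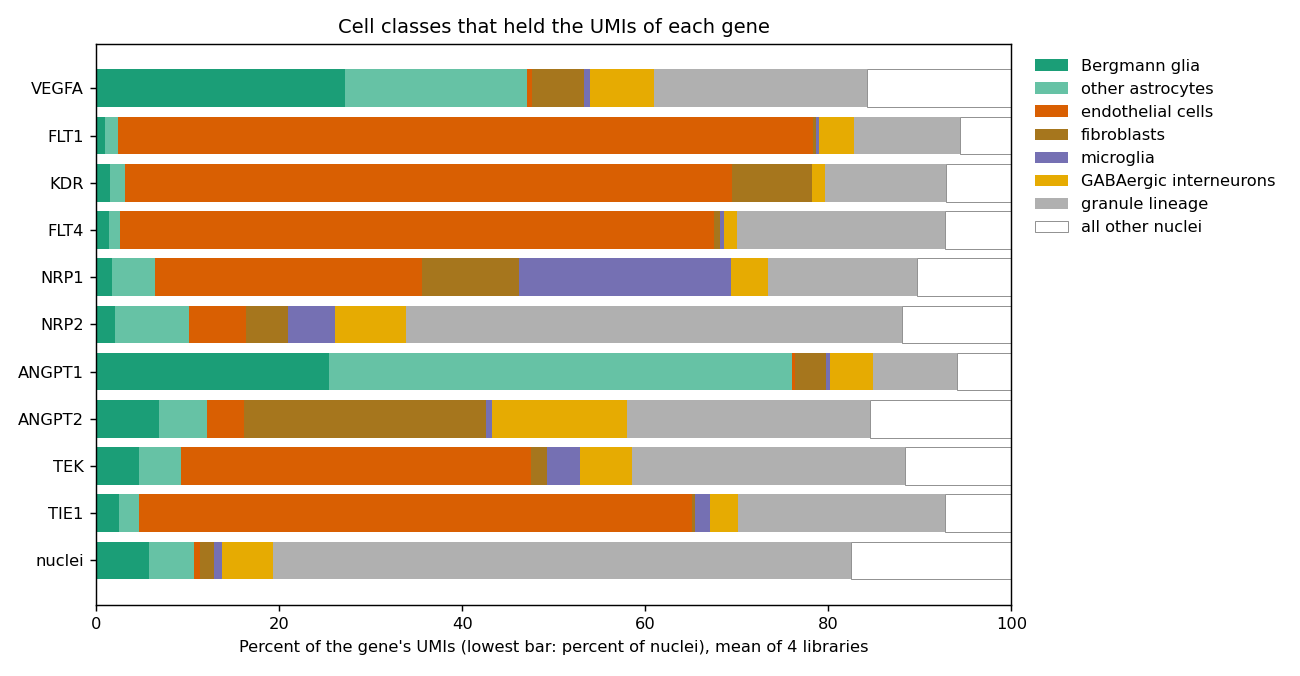
Stacked bars give, for each of the 10 genes, the percent of its UMIs held by each cell class (mean over the 4 libraries, horizontal axis in percent), and the lowest bar gives the percent of nuclei in each class. Astroglia (greens) took the largest part of VEGFA (47.1%) and ANGPT1 (76.1%), and endothelial nuclei (orange), which are barely visible among nuclei at 0.666%, took the largest part of FLT1, KDR, FLT4, TEK and TIE1.

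VEGFA (ENSMMUG00000004577) had its highest means in the 2 kinds of astroglia, though not its highest level in every library. In other astrocytes it stood at 63.7 CPM in the Control female, 184 in the Control male, 47.3 in the LPS female and 224 in the LPS male, and in Bergmann glia at 79.3, 170, 69.3 and 194 CPM in the same order. In both cell types the 2 male libraries were the high ones and the 2 female libraries the low ones, whatever the treatment. Their means, 130 ± 87.6 and 128 ± 63.3 CPM (SD, n = 4 libraries), did not differ beyond this spread, and oligodendrocyte-lineage nuclei (97.5 ± 66.2 CPM) and fibroblasts (93.9 ± 29.3 CPM) had ranges that overlapped theirs. In the Control male, oligodendrocyte-lineage nuclei (187 CPM) stood above both kinds of astroglia. In the Control female, fibroblasts (78.9 CPM) and oligodendrocyte-lineage nuclei (65.8 CPM) stood above other astrocytes, as did fibroblasts in the LPS female (60.0 CPM). Within Bergmann glia the cluster led by cell-cycle genes had 75.6 ± 43.5 CPM and the larger cluster 138 ± 65.7 CPM. Neurons had less VEGFA: Purkinje cells had 31.0 ± 27.8 CPM from 52 UMIs, GABAergic interneurons 27.5 ± 11.4 CPM, and the granule lineage at most 20.0 CPM in any library. Free RNA, measured in barcodes with at most 100 UMIs, carried VEGFA at 29.7 to 106 CPM, and the level that this free RNA would give was estimated at 4.56, 14.6, 3.27 and 13.4 CPM in the granule lineage of the Control female, Control male, LPS female and LPS male, against measured levels of 6.89, 19.9, 7.33 and 20.0 CPM. In astroglia the estimate was 4.47 to 17.7 CPM, against 60.6 to 208 CPM measured. VEGFA was detected in 35.6% of Bergmann glia and 31.0% of other astrocytes (median 3999 and 3520 UMIs per nucleus) against 3.55% of granule-lineage nuclei (median 3209 UMIs). Endothelial nuclei held 18 VEGFA UMIs in all.

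ANGPT1 (ENSMMUG00000017745), the TEK agonist, was an astrocyte transcript, and it was among the genes that led the cluster of other astrocytes. Its level in other astrocytes was 1674 CPM in the Control female, 977 in the Control male, 1844 in the LPS female and 934 in the LPS male. The female libraries were the high ones here, the reverse of VEGFA. Bergmann glia had 565, 351, 595 and 662 CPM in that order, below other astrocytes in every library, so that the 2 kinds of astroglia, alike in VEGFA, had ANGPT1 ranges that did not overlap (1357 ± 469 and 543 ± 135 CPM, SD, n = 4). ANGPT1 was detected in 75.7% of other astrocytes and 69.8% of Bergmann glia, against 5.89% of granule-lineage nuclei. Fibroblasts followed at 240 ± 119 CPM (96.8 to 386 CPM). Among GABAergic interneurons (86.8 ± 24.3 CPM) the transcript was unequally spread: a cluster led by ADARB2 and SORCS3 had 213 ± 69.9 CPM and a cluster led by NXPH1 191 ± 115 CPM, while the largest interneuron cluster had 18.5 ± 3.15 CPM. The 32 mural nuclei, a perivascular source of ANGPT1 in other tissues, held 23 ANGPT1 UMIs in 14 nuclei.

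**Figure D2:**
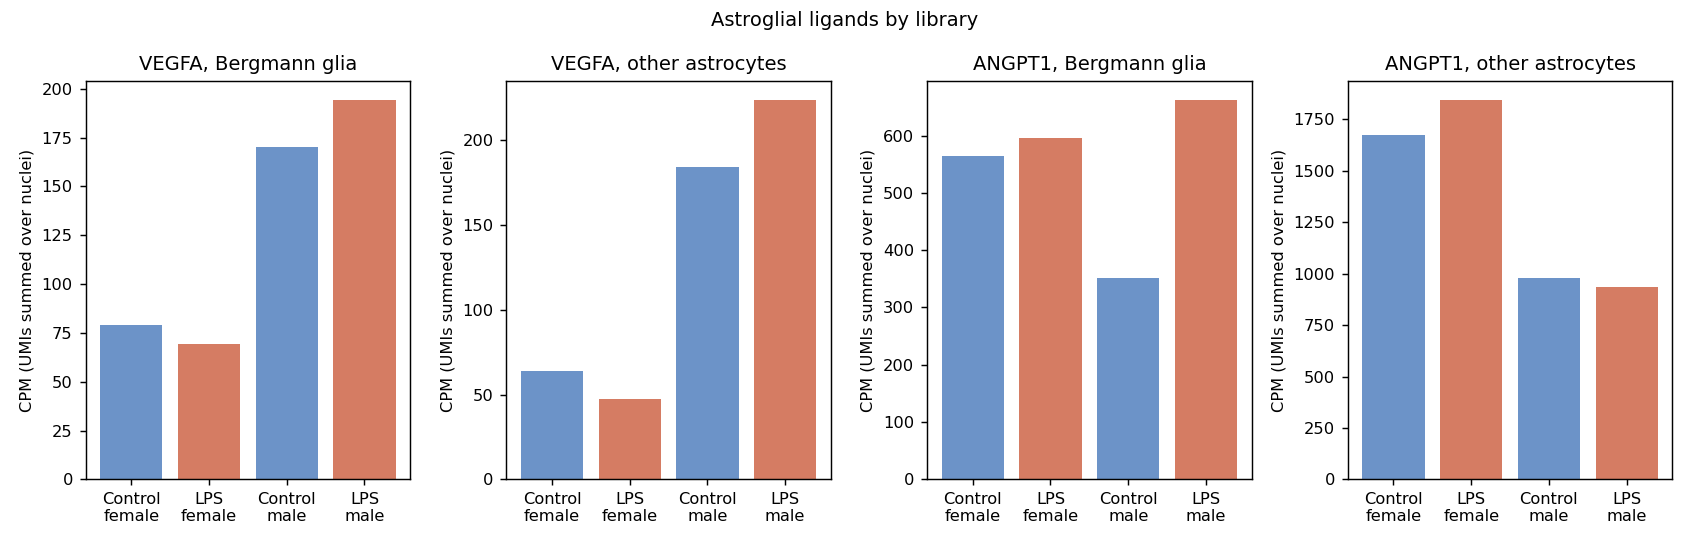
Bars give the level of VEGFA and ANGPT1 in Bergmann glia and in other astrocytes in each library (CPM, axes from 0, blue for Control and red for LPS). VEGFA stood higher in the 2 male libraries (170 to 224 CPM) than in the 2 female libraries (47.3 to 79.3 CPM), and ANGPT1 in other astrocytes stood higher in the 2 female libraries.

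ANGPT2 (ENSMMUG00000010139) is best known as an endothelial product, but its highest level was in fibroblasts, at 368 CPM in the Control female, 851 in the Control male, 413 in the LPS female and 323 in the LPS male. The Control male alone stood far above the other 3 libraries. Endothelial nuclei had 74.9, 168, 135 and 198 CPM (144 ± 52.8 CPM, 141 UMIs in all), a range under that of the fibroblasts, and held ANGPT2 in 29.5% of nuclei against 61.2% of fibroblasts and 3.94% of granule-lineage nuclei. The 32 mural nuclei held 15 ANGPT2 UMIs in 11 nuclei, or 150 CPM pooled over libraries. A neuronal source was also present. The interneuron cluster led in part by SLC6A5, the transporter of glycinergic neurons, had 172, 314, 196 and 222 CPM (226 ± 62.0 CPM, 198 nuclei), whereas the 3 other interneuron clusters had means of 16.7 to 27.9 CPM.

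FLT1 (ENSMMUG00000021538) was the most sharply endothelial of the 10 genes in its share of UMIs. Its level in endothelial nuclei was 2496 CPM in the Control female, 3648 in the Control male, 3018 in the LPS female and 2368 in the LPS male (2882 ± 582 CPM), and 201 of 220 endothelial nuclei (91.4%, median 4086 UMIs) held it against 1.91% of granule-lineage nuclei. No other class with a level had a mean above 30.1 CPM. The 32 mural nuclei held 10 FLT1 UMIs, or 100 CPM pooled over libraries. A minor neuronal signal came from the interneuron cluster led by NXPH1, with 78.5, 169, 92.4 and 9.30 CPM (98 UMIs in 220 nuclei), low in the LPS male.

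KDR (ENSMMUG00000012669), the main signalling receptor for VEGFA, had endothelial levels of 787, 984, 934 and 855 CPM in the order Control female, Control male, LPS female and LPS male. These 4 values lay close together (890 ± 86.8 CPM), and 79.1% of endothelial nuclei held KDR against 0.965% of the granule lineage. Fibroblasts were the next class, with 52.1, 66.7, 85.7 and 24.2 CPM and KDR in 14.6% of nuclei, and their range did not reach that of endothelial nuclei. FLT4 (ENSMMUG00000018693), the receptor for VEGFC and VEGFD, was sparse but endothelial, with 71.0, 135, 74.5 and 83.4 CPM from 100 UMIs and detection in 66 of 220 endothelial nuclei (30%) against 0.136% of the granule lineage.

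**Figure D3:**
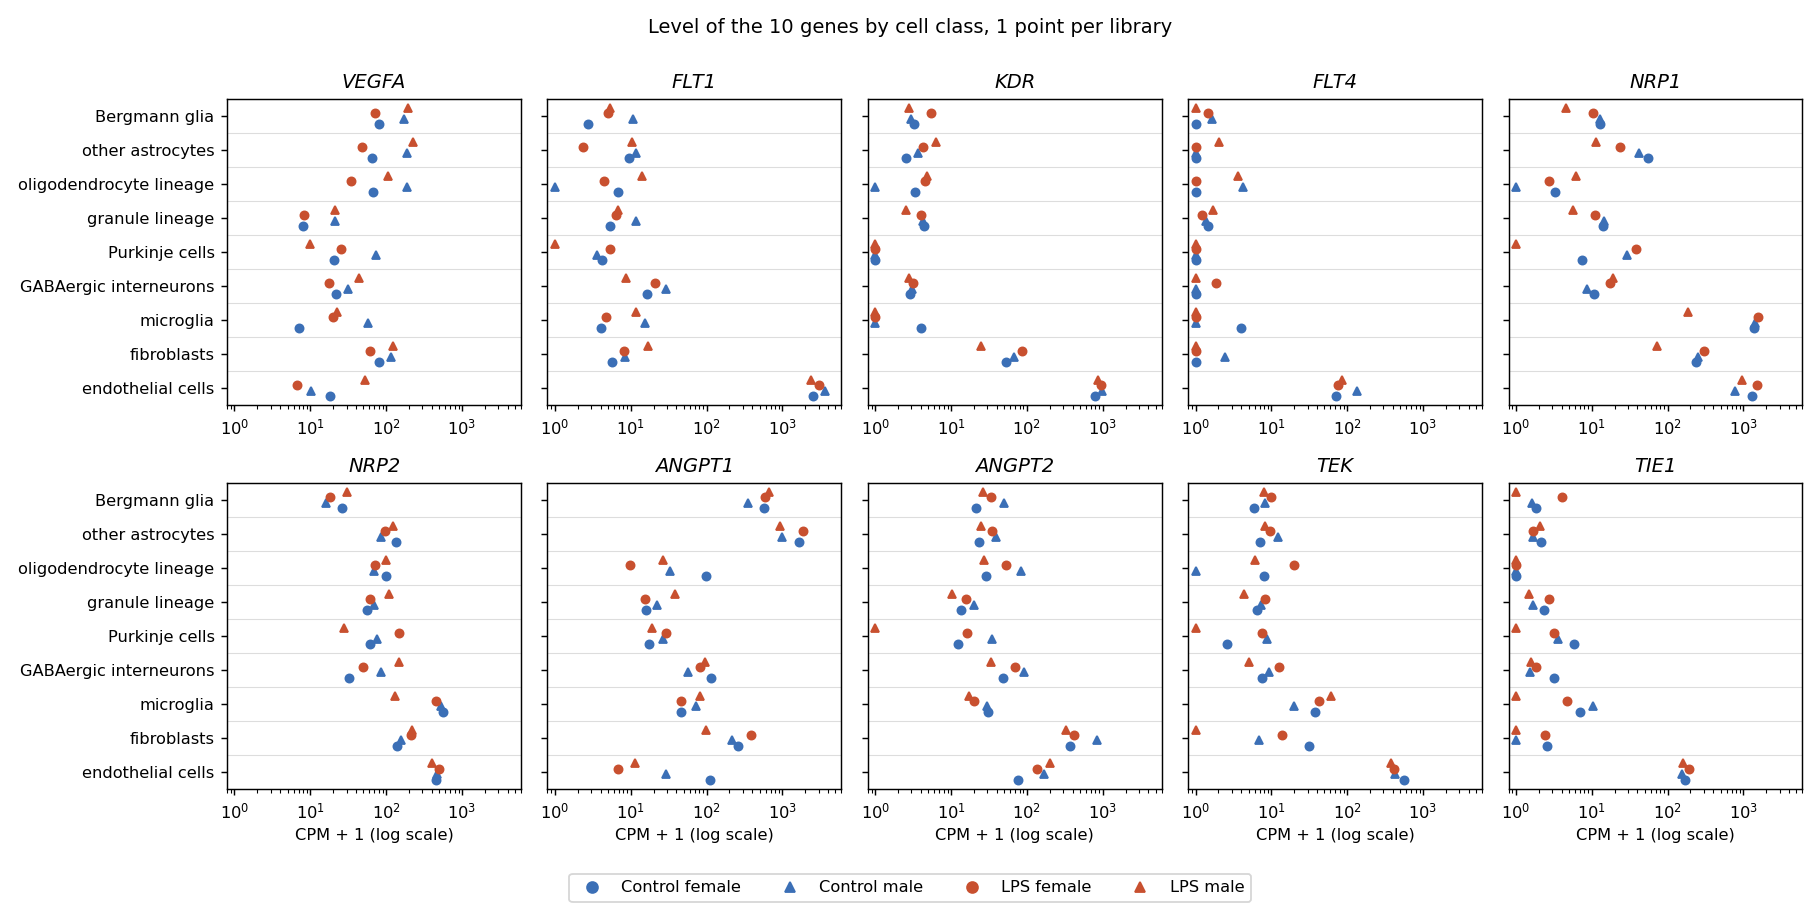
Each panel shows 1 gene and each point the level of that gene in 1 library (CPM + 1, log axis) for 9 cell classes, with circles for female and triangles for male libraries and blue for Control and red for LPS. Endothelial nuclei lie to the right of every other class for FLT1, KDR, FLT4, TEK and TIE1, and astroglia lead for ANGPT1. For VEGFA astroglia have the highest means but overlap the oligodendrocyte lineage and fibroblasts. The LPS male (red triangle) stands apart in microglia for NRP1 and NRP2.

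NRP1 (ENSMMUG00000017588), which binds VEGFA and SEMA3A, had its highest levels in endothelial nuclei and in microglia. Endothelial nuclei had 1296 CPM in the Control female, 779 in the Control male, 1516 in the LPS female and 949 in the LPS male. Microglia had 1394, 1409, 1546 and 184 CPM. Fibroblasts had 237, 249, 300 and 72.6 CPM. Microglia stood above endothelial nuclei in every library but the LPS male, where they stood far below. The endothelial and microglial means over libraries (1135 ± 333 and 1133 ± 636 CPM) were alike for that reason. The LPS male was the low library in microglia and in fibroblasts, from 34 and 9 UMIs.

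The 2 neuropilins had their highest means in different clusters of the granule lineage, although both were counted in all 6. NRP1 had its highest mean, 40.1 ± 22.2 CPM, in the cluster led in part by GAP43, a gene of growing axons, and means of 3.16 to 14.5 CPM in the other 5 clusters, 2 of which had ranges that overlapped it. NRP2 (ENSMMUG00000020052), which prefers SEMA3C and SEMA3F and in endothelium partners FLT4, stood at 99.8 ± 11, 91.1 ± 17.6 and 107 ± 26.9 CPM in the clusters led in part by TRPC7, by CHRM3 and by GABRA6, the last a gene of mature granule neurons, and at 11.8 to 30.5 CPM in the other 3 clusters. Per library the cluster with GABRA6 had 76.7, 106, 103 and 142 CPM of NRP2, and the cluster with GAP43 21.6, 15.3, 14.6 and 66.7 CPM. The 2 ranges did not overlap, although the LPS male was the highest library in both.

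NRP2 was also high outside the granule lineage. Endothelial nuclei had 449, 471, 496 and 407 CPM (456 ± 37.7 CPM), and microglia 561, 520.5, 448 and 130 CPM. The interneuron cluster led by NXPH1 had 198, 506, 201 and 407 CPM (328 ± 154 CPM), with the 2 male libraries high. Other astrocytes had 109 ± 21.6 CPM and Bergmann glia 15.1 to 29.9 CPM, the same ordering of the 2 kinds of astroglia as for ANGPT1. 

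**Figure D4:**
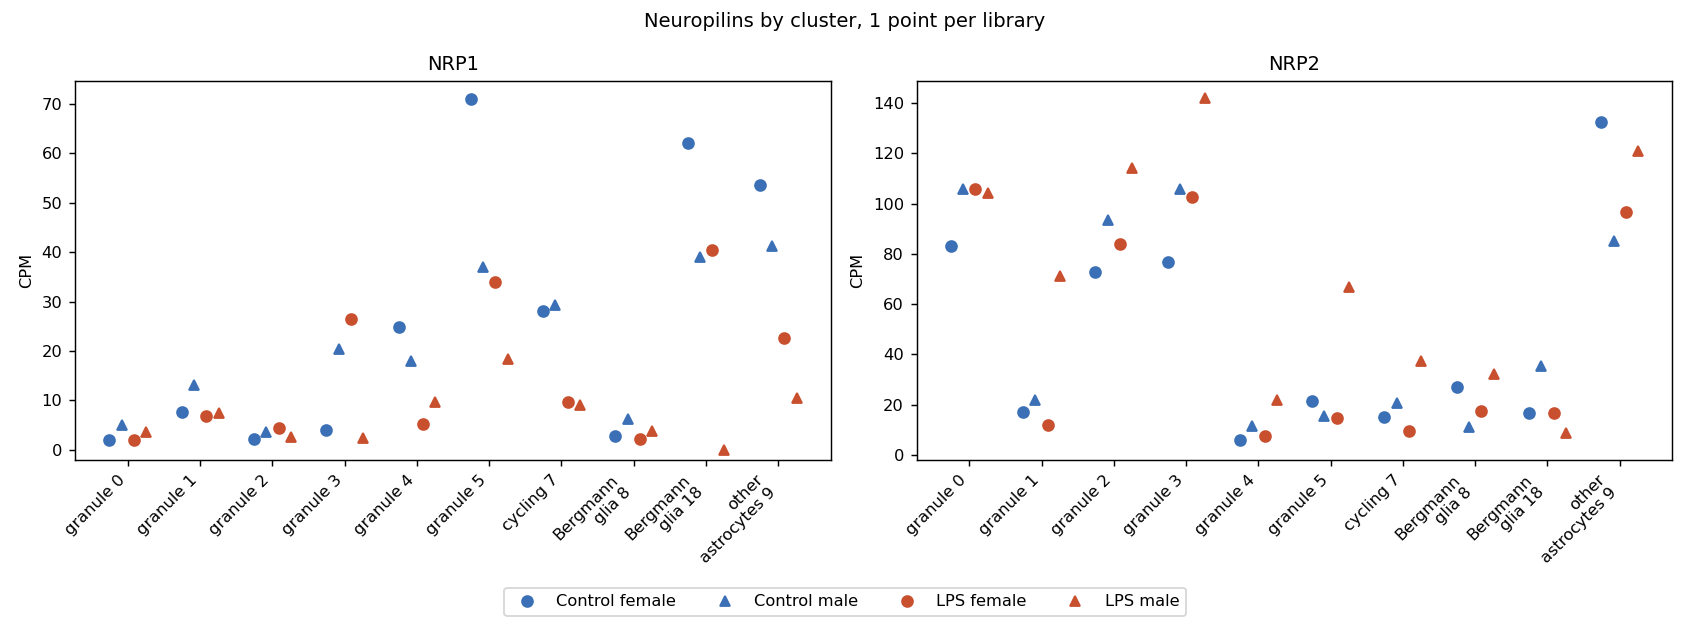
Points give the level of NRP1 and NRP2 (CPM, linear axes) in each library for the 6 granule-lineage clusters, the unnamed cycling cluster and the 3 astroglial clusters, with blue for Control, red for LPS, circles for female and triangles for male. NRP1 was highest in granule cluster 5 (18.3 to 71.1 CPM) and NRP2, among granule clusters, in 0, 2 and 3, with other astrocytes at a like level (109 CPM). For NRP1 the Control and LPS points overlap in granule clusters 0, 2 and 3 and in both Bergmann glia clusters, and in the other 5 both LPS points lie lower, in granule cluster 1 by little (7.36 against 7.64 CPM). The share of all genes lying apart was not computed per cluster, and nothing is read from this.

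In the LPS male, where microglia had little NRP1 and NRP2, the other genes of the cluster moved in different directions. F13A1 stood at 1089, 840, 1554 and 97.7 CPM and MRC1 at 540, 377, 647 and 130 CPM in the order Control female, Control male, LPS female and LPS male, lowest in the LPS male. Of the 10 microglial markers, 5 were lowest in the LPS male (APBB1IP, MERTK, DAB2, RBM47 and PTPRC), among them DAB2 at 1930, 1738, 2393 and 304 CPM. C3, a complement gene, was highest there, at 199, 224, 218 and 553 CPM. CSF1R was at 253, 320, 169 and 315 CPM and CX3CR1 at 495, 62.1, 399 and 407 CPM, neither of them lowest in the LPS male. The 10 markers together summed to 10216, 7139, 10563 and 5725 CPM. P2RY12, a gene of resident microglia, had 733, 167, 681 and 304 CPM and was lowest in the Control male, and INPP5D was between 1237 and 1685 CPM in every library. F13A1 and MRC1 were picked here after their values were seen. The LPS male had 45 nuclei in this class, the free-RNA share of the class was estimated at 30.8% there against 14.9% to 24.1% elsewhere, and the 12 granule-lineage markers summed to 1897, 2941, 1840 and 6392 CPM in it, highest in the LPS male. The part of any of these in the neuropilin values was not tested.

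TEK (ENSMMUG00000006080), the angiopoietin receptor, had 565 CPM in endothelial nuclei of the Control female, 424 in the Control male, 410 in the LPS female and 376 in the LPS male (444 ± 83.2 CPM). It was held by 70.9% of endothelial nuclei against 1.73% of the granule lineage. Microglia were the next class at 39.1 ± 16.7 CPM from 38 UMIs, with TEK in 11.7% of nuclei. TIE1 (ENSMMUG00000010660) was at 167, 154, 189 and 156 CPM in endothelial nuclei (167 ± 16.0 CPM). It was found in 47.3% of them against 0.383% of the granule lineage, and had a mean of at most 4.84 CPM in every other class with a level. The 32 mural nuclei held 2 TIE1 UMIs, or 20.0 CPM pooled over libraries.

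The receptors met in the same nuclei. Transcripts of FLT1 and KDR were detected together in 166 of 220 endothelial nuclei (75.5%), and of FLT1, KDR and TEK together in 133 (60.5%), whereas 7 nuclei (3.18%) held none of these 3. Per library, the share with all 3 was 81.7% (70.7% to 89.9%) in the Control female (median 5893 UMIs per endothelial nucleus), 37.0% (26.0% to 49.1%) in the Control male (2224 UMIs), 73.9% (58.9% to 85.7%) in the LPS female (5296 UMIs) and 46.7% (28.3% to 65.7%) in the LPS male (2789 UMIs), with exact 95% binomial intervals that cover counting error only. The deeper libraries had the higher shares, and no difference between groups is read from them. In the granule lineage 5 of 20629 nuclei held FLT1 and KDR together (0.0242%), at a median of 3209 UMIs.

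Of the 44 other genes of these pathways on a list of ligands, partners and targets, 40 were in the gene list. VEGFC, the FLT4 ligand, was highest among named classes in unipolar brush cells, at 125 and 330 CPM in the 2 libraries with enough of these nuclei, and in endothelial nuclei (136 ± 35.6 CPM), so that ligand and receptor transcripts were present in the same endothelial class. SEMA3A, the NRP1 ligand, had 135 ± 44.0 CPM in the granule lineage. The plexins that signal for neuropilins were divided by class. PLXND1 was endothelial (191 ± 46.5 CPM, and 7.22 ± 6.99 CPM in astroglia), PLXNA4 was neuronal (248 ± 90.0 CPM in GABAergic interneurons and 237 ± 64.1 CPM in Purkinje cells), and PLXNA2 was broad (393 ± 91.4 CPM in GABAergic interneurons, 360 ± 21.5 CPM in other astrocytes and 182 ± 69.2 CPM in endothelial nuclei). PTPRB, a phosphatase that restrains TEK and is named here after its values were seen, had 485 ± 49.3 CPM in endothelial nuclei and 342 ± 68.4 CPM in Purkinje cells.

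Likeness of pattern was measured as Pearson's r of log2(CPM + 1) over the 52 pairs of class and library with enough nuclei, which share libraries, depth and class and so are not independent. TIE1 was most like PCDH12 (r = 0.936), FLT4 like ZNF366 (0.916), KDR like CAVIN1 (0.911), a caveolar coat gene, and FLT1 like ADGRF5 (0.905). TEK was most like TDRD10 (0.823), NRP1 like TNFRSF10D (0.850), NRP2 like WBP1L (0.791), ANGPT1 like ALK (0.821) and VEGFA like FIGN (0.727). Among the 10 genes themselves the closest pairs were KDR with FLT4 (0.805), FLT4 with TIE1 (0.804) and TEK with TIE1 (0.795). VEGFA was nearest to ANGPT1 (0.509), and its r with FLT1 was -0.18.

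Whether LPS exposure changed these genes was tested on UMI counts summed per library, 2 LPS against 2 Control libraries, in all nuclei, astroglia, the granule lineage and endothelial nuclei. With edgeR's quasi-likelihood test, adjusted over all genes of a class by Benjamini-Hochberg, a gene was called at an adjusted p under 0.1 and a log2 fold change beyond 0.25 in either direction. None of the 10 genes was called in any of the 4, and neither was any other gene: 0 of 16138, 12206, 14593 and 5624 genes (0% in each), with 37, 38, 29 and 49 genes at an unadjusted p under 0.05. DESeq2 also called 0 genes in each, with 75, 51, 75 and 46 at an unadjusted p under 0.05. The main edgeR fit did not include sex, so differences between the male and female libraries counted as spread within groups. With sex as a block edgeR again called 0 genes in each, with 341, 337, 288 and 140 at an unadjusted p under 0.05. The lack of calls is therefore not read as a lack of change. Leaving out any 1 library gave 12 to 34 called genes in endothelial nuclei, where ANGPT1 was the only member called, and only in 1 of the 4 cases. An exact permutation test of 2 against 2 samples cannot give a p below 0.333.

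In astroglia 8 of the 10 genes passed the filter on low counts. VEGFA was at 72.7 CPM in the Control female, 177 in the Control male, 60.6 in the LPS female and 208 in the LPS male. The groups overlapped, and its log2 fold change of LPS over Control was 0.10 ± 0.64 (SE, edgeR, 95% interval -1.50 to 1.70, adjusted p = 1.00). ANGPT1 was at 1036, 661, 1093 and 786 CPM, with overlapping groups, log2 differences of 0.08 in females and 0.25 in males, and a log2 fold change of 0.12 ± 0.44 (-0.97 to 1.21). In females and males the differences were 0.14 and -0.06 in other astrocytes, and 0.08 and 0.92 in Bergmann glia. In Bergmann glia both LPS libraries (595 and 662 CPM) lay above both Control libraries (565 and 351 CPM). The share of all genes lying apart was not computed in Bergmann glia alone, and nothing is read from ANGPT1 there. The intervals allow changes of more than 2-fold in either direction for VEGFA.

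NRP1 was the member furthest from no change in astroglia, at 29.7 CPM in the Control female, 26.4 in the Control male, 14.6 in the LPS female and 6.70 in the LPS male, from 181, 80, 55 and 14 UMIs. Both LPS libraries lay below both Control libraries, and the log2 fold change was -1.37 ± 0.52 (edgeR, 95% interval -2.68 to -0.06, unadjusted p = 0.0428, adjusted p = 1.00), which does not pass the correction, and the unadjusted p was 0.133 without the Control female and 0.147 without the LPS male. NRP1 stood lower in LPS within each sex in other astrocytes, at 53.7 and 41.3 CPM in the Control female and male against 22.7 and 10.5 CPM in the LPS female and male, or log2 differences of -1.24 in females and -1.97 in males. In Bergmann glia NRP1 was at 12, 11.8, 9.28 and 3.52 CPM, but 61 of its UMIs lay in the cluster of 203 nuclei led by cell-cycle genes (62.1, 39.1, 40.4 and 0 CPM) and 24 in the larger cluster (2.70, 6.30, 2.17 and 3.90 CPM), and the groups overlapped in each of the 2 clusters. Of 12206 genes tested in astroglia, 6.89% lay lower and 8.57% higher in both LPS libraries without overlap, and of the 8 members NRP1 lay lower and KDR, with 41 UMIs in all, higher. Free RNA would give an estimated 4.55, 8.94, 3.38 and 4.63 CPM of NRP1 in astroglia, against the 29.7, 26.4, 14.6 and 6.70 CPM measured, and its part in the NRP1 values was not tested. The summed markers of the classes richest in NRP1 were also measured in astroglia. The 10 microglial markers summed to 81.2, 82.2, 66.7 and 116 CPM, highest in the LPS male, the 10 fibroblast markers to 138, 196, 184 and 132 CPM, and the 14 endothelial markers to 905, 823, 1073 and 625 CPM, with at most 2 markers of a list at 0 in any library. The fibroblast and endothelial sums were lowest in the LPS male, and their part in the NRP1 values was not tested.

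In the unnamed cluster of 1673 nuclei led by cell-cycle genes such as MKI67 and ASPM, NRP1 was at 28.2 CPM in the Control female, 29.3 in the Control male, 9.76 in the LPS female and 9.14 in the LPS male. In the granule lineage as a whole it was at 13, 13.3, 10.1 and 4.71 CPM, with a log2 fold change of -0.83 ± 0.50 (edgeR, -2.12 to 0.47, unadjusted p = 0.16, adjusted p = 1.00), which was -1.50 without the LPS female and -0.37 without the LPS male. The granule lineage of the LPS male was divided differently among its clusters. The cluster with GABRA6 held 1446 of its 4107 nuclei, against 373 to 575 nuclei elsewhere, and the cluster with GAP43, which held 350 of the NRP1 UMIs, had 294 nuclei in the LPS male and 705 to 833 elsewhere. In the clusters with TRPC7, CHRM3 and GABRA6 the groups overlapped in NRP1, as in that with CHRM3 at 2.15, 3.67, 4.47 and 2.67 CPM. In the clusters with GAP43, COMP and ERBB4, which held 350, 126 and 87 NRP1 UMIs, both LPS libraries lay below both Control libraries. NRP1 was at 71.1, 37.1, 33.98 and 18.3 CPM with GAP43 and at 24.81, 18.01, 5.29 and 9.75 CPM with COMP. With ERBB4 the gap was small, at 7.36 CPM in the LPS male against 7.64 CPM in the Control female. NRP1 and KDR were the 2 of 9 tested members that lay lower in both LPS libraries in the granule lineage as a whole, where 4.97% of all genes did and 7.45% lay higher. GABAergic interneurons had the opposite order, at 9.68, 7.79, 16.5 and 18.2 CPM, and endothelial nuclei overlapped. The share of all genes whose groups lay apart was not computed in the cell-cycle cluster, in any other single cluster, in other astrocytes alone or in interneurons, and nothing is read from NRP1 there. NRP2 in the granule lineage had 55.3, 67.5, 60.7 and 109 CPM, with the LPS male apart from the others, and a log2 fold change of 0.47 ± 0.38. Within the largest cluster, that with TRPC7, it was at 83.3, 106, 106 and 104 CPM, with the LPS male not apart. In every other granule cluster the LPS male was the highest library for NRP2. It was at 72.7, 93.6, 83.8 and 114 CPM with CHRM3 and at 16.9, 21.9, 11.9 and 71.2 CPM with ERBB4. The part of the cluster make-up in the pooled values of both neuropilins was not tested.

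In endothelial nuclei no receptor was called between groups, and each 95% interval held values on both sides of no change. This is not read as a lack of change. Of 8 members tested, log2 fold changes were -0.14 ± 0.42 for FLT1 (edgeR, 95% interval -1.13 to 0.85), 0.06 ± 0.38 for KDR (-0.83 to 0.95), -0.32 ± 0.49 for FLT4, 0.29 ± 0.48 for NRP1, 0.02 ± 0.36 for NRP2, 0.50 ± 0.50 for ANGPT2, -0.30 ± 0.38 for TEK (-1.19 to 0.59) and 0.16 ± 0.38 for TIE1, all with an adjusted p of 0.999. TEK was the only one of the 8 whose groups did not overlap, with log2 differences of -0.46 in females and -0.18 in males, where 14% of the 5624 genes lay lower in this way and 8.73% higher.

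**Figure D5:**
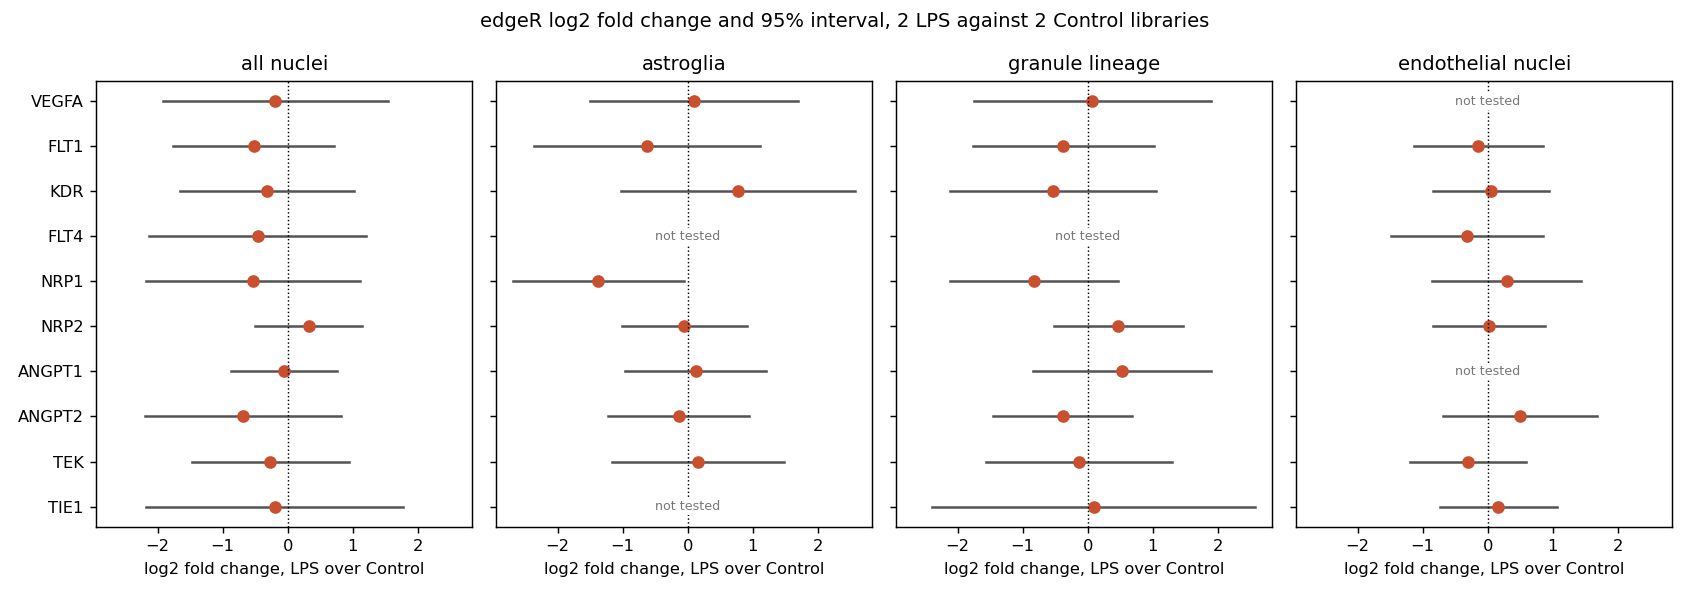
Points give the edgeR log2 fold change of LPS over Control and lines its 95% interval for the 10 genes in all nuclei, astroglia, the granule lineage and endothelial nuclei (2 libraries per group). Every interval crosses 0 except that of NRP1 in astroglia (-2.68 to -0.06), and genes below the filter on low counts are written as not tested.

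Summed over all nuclei, where fewer cells of a type and less RNA per cell cannot be told apart, all 10 genes passed the filter and no member's groups lay apart (5.45% of 16138 genes lay lower and 7.15% higher). Log2 fold changes ran from -0.69 ± 0.58 for ANGPT2 to 0.32 ± 0.32 for NRP2, with 9 of 10 below 0 and a median of -0.29. Over all genes, 7876 of 16138 were below 0 and the median was 0.01. The direction differed by sex. In females only VEGFA (-0.21) and ANGPT1 (-0.04) were lower in LPS, while in males all members but NRP2 (0.45) were lower, so no change of the set is read from this. ANGPT2 was at 23.5 CPM in the Control female, 61.9 in the Control male, 34.7 in the LPS female and 16.6 in the LPS male. Fibroblasts, its richest class, numbered 130, 204, 146 and 33 nuclei in the same order. Within classes ANGPT2 was also lower in the LPS male than in the Control male, at 323 against 851 CPM in fibroblasts, 9.25 against 19.1 CPM in the granule lineage, 32.9 against 90.9 CPM in GABAergic interneurons and 25.5 against 49.2 CPM in Bergmann glia, and higher in endothelial nuclei, at 198 against 168 CPM. In females it was higher in LPS in these 5 classes, by log2 differences of 0.17 in fibroblasts, 0.24 in the granule lineage, 0.52 in GABAergic interneurons, 0.65 in Bergmann glia and 0.85 in endothelial nuclei. The part of fibroblast number in the sum was not tested. FLT1 was at 34.0, 50.6, 40.3 and 17.7 CPM, beside 71, 73, 46 and 30 endothelial nuclei. Without the cluster of low UMI number, an alternative chosen after the data were seen, the values were -0.69 for ANGPT2 and 0.34 for NRP2, and again no gene was called.

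ANGPT1 in endothelial nuclei had too few UMIs to pass the filter. It was at 109 CPM in the Control female, 28.0 in the Control male, 5.73 in the LPS female and 10.4 in the LPS male, from 57, 6, 2 and 1 UMIs. Free RNA would give an estimated 24.0, 32.3, 9.48 and 19.2 CPM, above the measured level in every library but the Control female, so no change is read from these values. In the Control female 40 of the 57 UMIs lay in 3 nuclei, and without nuclei called doublets the levels were 62.1, 12.7, 5.97 and 10.4 CPM. The 9 Bergmann glia markers summed to 2648, 1292, 1934 and 1815 CPM and the 10 markers of other astrocytes to 1121, 611, 544 and 574 CPM in these nuclei, highest in the Control female, and their part in the ANGPT1 values was not tested. A call appeared when the Control male was left out (log2 fold change -3.88, edgeR adjusted p = 0.0284), and not when the LPS male (-3.50, adjusted p = 0.134) or the LPS female (-2.81, adjusted p = 0.998) was left out, and without the Control female the gene did not pass the filter.

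Because VEGFA and ANGPT1 in astroglia lay apart by the sex of the fetus, the 2 male libraries were compared with the 2 female libraries in astroglia and in endothelial nuclei. This comparison was added after the data were seen, and the p-values of these genes are not independent of that choice. In astroglia VEGFA was 1.36 ± 0.18 higher in males on the log2 scale (edgeR, 95% interval 0.93 to 1.80, adjusted p = 0.00681) and ANGPT1 0.71 lower (-0.71 ± 0.17, adjusted p = 0.0268). In pooled astroglia each held in both treatment groups, but in Bergmann glia alone ANGPT1 was higher in the LPS male (662 CPM) than in the LPS female (595 CPM). Between the sexes 32.4% of the 12206 genes were called, 2010 higher and 1946 lower in males, and 40.7% lay higher and 25% lower without overlap, so a call was common among all genes. Of the 8 members tested, FLT1 also lay higher without overlap (0.99 ± 0.44, adjusted p = 0.148) and was not called. NRP1 was not called in astroglia (-0.56 ± 0.58) but was without the Control male (-1.89, adjusted p = 0.0401). The ANGPT1 call was lost without the Control female (-0.73, adjusted p = 0.148) or the LPS female (-0.72, adjusted p = 0.171), and the VEGFA call was kept without each library in turn. In endothelial nuclei 0 of 8 members were called with edgeR, 1 of them (NRP1, -0.82 ± 0.26, adjusted p = 0.155) at an unadjusted p under 0.05, where 3.75% of 5624 genes (211) were called, 80 with treatment as a block and 96 to 556 on leaving out 1 library. NRP1 was called without the LPS male (-0.97, adjusted p = 0.0982), and ANGPT1, not tested on all 4 libraries, without the LPS female (-2.40, adjusted p = 0.0256). ANGPT2 and FLT4 lay higher and NRP1 and TIE1 lower in both male libraries there, where 30.9% of genes lay higher and 21.2% lower.

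The sex of the fetus, the UMIs per nucleus and the mitochondrial share split the libraries in the same way, and they cannot be told apart here. Free RNA followed the same split for VEGFA, at 36.9 and 29.7 CPM in the female and 106 and 68.4 CPM in the male libraries. Granule-lineage VEGFA did so too, at 6.89 and 7.33 CPM against 19.9 and 20.0 CPM. Over all nuclei VEGFA was at 19.4 and 16.8 CPM against 53.2 and 44.6 CPM. The oligodendrocyte lineage had 65.8 and 33.0 CPM against 187 and 105 CPM, and fibroblasts 78.9 and 60.0 CPM against 116 and 121 CPM. GABAergic interneurons and microglia had the same split for VEGFA, while Purkinje cells and endothelial nuclei did not. From the same pathway list, 28 genes were tested in astroglia between the sexes. SEMA3B (1.47 ± 0.44), SEMA3F (1.34 ± 0.47), PLXNA3 (1.25 ± 0.21), PLXND1 (1.96 ± 0.61), PLCG1 (1.18 ± 0.22) and NOTCH1 (0.78 ± 0.16) were called higher in males and SEMA3C (-0.96 ± 0.28) lower, 7 of 28 in all beside 32.4% of all genes. In endothelial nuclei 1 of 20 list genes was called, NDRG1 (3.1 ± 0.55, adjusted p = 0.0402, from 30 UMIs). Between LPS and Control edgeR called none of the list genes tested: 0 of 36 in all nuclei, 0 of 28 in astroglia, 0 of 32 in the granule lineage and 0 of 20 in endothelial nuclei, and none of them had an unadjusted p under 0.05.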

How the data were processed

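UMI counts per gene and barcode were deposited by the authors for 4 libraries, with all barcodes kept. Per the labels and the study's methods, nuclei were sequenced on a droplet platform and reads, introns included, were counted against Mmul_8.0.1 with Cell Ranger (version 4 in the submitters' processing notes, a later one in the labels' protocol). No free-RNA correction was part of these counts. Reads in introns raise the counts of long genes, and gene lengths were not used, so levels are not compared between genes.

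Barcodes with 500 or more genes were kept. Against the nuclei the study lists, the LPS female then had fewer barcodes and the other 3 libraries more, with the largest gap in the LPS male. Seurat 5.3.0 (R 4.3.3) integrated the libraries on 2000 features and 30 dimensions with 50 member and pathway genes left out, and clusters at resolution 0.5 (1.0 as an alternative) were named from fixed marker lists. Doublets were called with Scrublet in scanpy 1.11.5 and kept, their removal being an alternative. In the male libraries the automatic threshold marked 0% and 0.0256% of barcodes, so the median of the female thresholds was used there. Free RNA was read from barcodes with 1 to 100 UMIs, and its share of a class was estimated from markers of other classes. Counts were summed per class and library, which is the replicate, and tested with edgeR 4.0.16 (filterByExpr, TMM, quasi-likelihood test), or DESeq2 1.42.0 as an alternative, after a check on simulated data. Python 3.11.15, numpy 2.4.6, scipy 1.17.1, pandas 2.3.3 and matplotlib 3.10.9 were used for the rest. Alternatives were edgeR without TMM, no filter on low counts, sex as a block, each library left out, doublets removed, at most 5% mitochondrial UMIs, 1000 or more genes and free RNA subtracted.

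The 10 genes and all lists were chosen with earlier results of these data known. Named genes are the 10 members, the pathway genes called in a test or most abundant among ligands, semaphorins and plexins (at most 12 in all, PTPRB being added after its values were seen), and the genes most correlated with each member among those with a mean of 5 or more CPM (the gene nearest to ANGPT2 is not reported here). The male against female comparison, the values without the cluster of low UMI number and those of each kind of astroglia alone were added after the data were seen. A gene with few UMIs has a level limited by counting, and a class with few nuclei by the nuclei sampled.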

Additional observations from a re-analysis of the deposited data

Results flagged for a closer look

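The 10 genes were searched in all nuclei, astroglia, the granule lineage and endothelial nuclei. No other gene was searched, so no share over all genes is given. Sought were cases with 10 or more UMIs in each library. Their log2 ratios of LPS to Control had to be over 0.5 in size and of opposite sign in females and males. In 3 measures this was so, with 1 library on each side. Other classes were not searched, and pairs of opposite sign also occurred there, such as ANGPT2 in GABAergic interneurons (0.52 in females and -1.47 in males). None of these differences between the sexes was tested. NRP2 in astroglia had a log2 ratio of LPS to Control of -0.54 in females (70.9 CPM in Control, 48.9 CPM in LPS) and 0.52 in males (49.9 and 71.3 CPM). ANGPT2 summed over all nuclei had 0.56 in females and -1.90 in males, beside 130 and 146 fibroblasts in the female and 204 and 33 in the male Control and LPS libraries. ANGPT2 in astroglia had 0.62 in females (21.3 and 32.7 CPM) and -0.82 in males (43.9 and 24.9 CPM, the last from 52 UMIs).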

How the results depend on the processing

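None of the 15 member fold changes between LPS and Control that were recomputed became a call under any alternative run (ANGPT1 in endothelial nuclei, described above, is not among them). Of their 173 values, 151 kept their direction and 22 reversed, 17 of them on leaving out 1 library. Leaving out each library in turn gave log2 fold changes of -1.31 to 0.073 for ANGPT2 and -0.0045 to 0.59 for NRP2 in all nuclei, -0.97 to 0.74 for VEGFA and -0.24 to 0.61 for ANGPT1 in astroglia, and -1.50 to -0.37 for NRP1 and -0.00015 to 0.82 for NRP2 in the granule lineage. In endothelial nuclei the ranges were -0.41 to 0.11 for FLT1, -0.085 to 0.20 for KDR, -0.65 to 0.14 for FLT4, -0.19 to 0.82 for NRP1, -0.22 to 0.22 for NRP2, 0.067 to 1.10 for ANGPT2, -0.52 to 0.027 for TEK and -0.088 to 0.34 for TIE1. The other 5 reversals were VEGFA in astroglia with sex as a block (-0.020), KDR with doublets removed (-0.082) and NRP2 without TMM (-0.034), with doublets removed (-0.085) and at 5% mitochondrial UMIs or fewer (-0.11), the last 4 in endothelial nuclei, and the cause was not tested. NRP1 in astroglia stayed below 0, from -2.14 without the LPS female to -0.91 without the LPS male, at -1.49 in other astrocytes alone and -0.81 in Bergmann glia alone, with adjusted p-values of 0.788 to 1.00.

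With no filter on low counts, 10 genes were called in astroglia and 11 in endothelial nuclei. Leaving out 1 library gave 0 to 3 calls in astroglia and 12 to 34 in endothelial nuclei, where the remaining library of a group is assumed to vary like the other group, and 0 to 0 in all nuclei and in the granule lineage. Between the sexes these counts were 1109 to 4287 in astroglia and 96 to 556 in endothelial nuclei, where treatment as a block gave 80 calls. Subtracting the estimated free RNA moved the endothelial means to 1047 CPM for KDR, 528 CPM for NRP2 and 195 CPM for TIE1. Of the remaining 87 of 90 recomputed levels none moved beyond 1 SD. The labels give no replicate numbers, so the pairing by sex was tried as a block: it changed no call between LPS and Control, and NRP1 in astroglia was then -1.43 (adjusted p = 0.998).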

Other observations

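The cells that wrap vessels and those of the choroid plexus were too few for levels in every library, and their UMIs are given as totals. The 32 mural nuclei held 23 UMIs of ANGPT1, 18 of NRP1, 15 of ANGPT2, 10 of FLT1 and 1 each of VEGFA and TEK. Each library held between 2 and 11 of the mural ANGPT1 UMIs. Pooled over libraries, these UMIs gave 230 CPM, while free RNA carried ANGPT1 at 106 to 167 CPM. The free-RNA share in mural nuclei could not be estimated, and its part in these UMIs was not tested. The 40 choroid or ependymal nuclei, marked by TTR and HTR2C and mostly from the 2 LPS libraries (22 in the LPS female and 13 in the LPS male), held 26 UMIs of NRP1, of which 25 were in the LPS female, 22 of ANGPT1, of which 19 were in the LPS male, and 24 of NRP2. No comparison between groups was possible for these nuclei.

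Beyond the nearest gene of each member, the genes next most alike in pattern included TBX3 for FLT1 (r = 0.885), LEF1, a target-activating partner of beta-catenin, for KDR (0.903), TNFSF10 for FLT4 and TIE1 (0.901 and 0.900), ACVRL1, a BMP receptor of endothelium, for TEK (0.809), TGFBR2 for NRP1 (0.842) and MFGE8 for ANGPT1 (0.795), over the same 52 pairs of class and library. These r values carry no p, since the pairs share libraries and classes.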
